A study of Homo sapiens with 12 samples.

Results

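The 9 enzymes described here write, copy, oxidise or excise methyl groups on cytosine in DNA: DNMT1, DNMT3A, DNMT3B, UHRF1, HELLS, TET1, TET2, TET3 and TDG. They were chosen by symbol, with earlier results of these data known, and each matched 1 of the 40591 named lines of the deposited count table. All 9 passed the filter on low counts and were among the 15179 genes tested. Poly(A) RNA was sequenced from 12 libraries of ARPE-19, an established human line derived from retinal pigment epithelium (RPE), in 4 groups of 3. GFP, GSTA4 and OSK were stable lines collected 4 days into expression of an open reading frame (ORF): green fluorescent protein as the ORF control, glutathione S-transferase alpha 4, and the reprogramming factors POU5F1 (OCT4), SOX2 and KLF4, as OSK was read here. WT names ARPE-19 cells whose labels mention no ORF. The promoter that drives the ORFs, the vector, and whether a group held 1 stable line or several separate cultures are not given in the sources used here, so p-values measure the spread between these libraries, which may be technical, and an ORF's effect cannot be told apart from other differences between the lines.

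Cytosine methylation at CpG sites is copied after each round of DNA replication by DNMT1, which UHRF1 brings to hemimethylated DNA, while the chromatin remodeller HELLS opens compact chromatin for the methyltransferases. DNMT3A and DNMT3B place methyl groups on sites that carried none. TET1, TET2 and TET3 oxidise methylated cytosine, and the glycosylase TDG cuts out the most oxidised forms, which base excision repair replaces with plain cytosine. Reprogramming to pluripotency is known to depend on removal of methylation, and the transcripts of the maintenance machinery are known to be made mainly in cycling cells.

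The promoter sequences of the maintenance genes are shown first because each has a listed start with a short word that the listed starts of the other 6 genes lack. This word was singled out from several that were searched. RefSeq promoters (GRCh38.p14) run from 250 bases before to 50 bases after a start, and all 9 genes matched, with 20 listed starts. Capitals mark the E2F word, searched on both strands as TTTCCCGC, TTTCGCGC, TTTGCCGC or TTTGGCGC. These words match the textbook site of E2F, the factor family that switches on replication genes. The 4 promoters are DNMT1 at chr19:10194904-10195203 on the minus strand, the first listed start of UHRF1 at chr19:4909251-4909550 on the plus strand, HELLS at chr10:94545538-94545837 on the plus strand, and for comparison the first listed start of TET3 at chr2:73984660-73984959 on the plus strand, each written 5′ to 3′.
DNMT1: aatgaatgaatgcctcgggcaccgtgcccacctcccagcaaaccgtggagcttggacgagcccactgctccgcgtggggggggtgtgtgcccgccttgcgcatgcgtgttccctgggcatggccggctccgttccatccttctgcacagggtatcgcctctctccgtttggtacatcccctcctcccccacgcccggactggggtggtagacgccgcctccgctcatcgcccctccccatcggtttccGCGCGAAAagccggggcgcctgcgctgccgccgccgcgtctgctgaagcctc
UHRF1: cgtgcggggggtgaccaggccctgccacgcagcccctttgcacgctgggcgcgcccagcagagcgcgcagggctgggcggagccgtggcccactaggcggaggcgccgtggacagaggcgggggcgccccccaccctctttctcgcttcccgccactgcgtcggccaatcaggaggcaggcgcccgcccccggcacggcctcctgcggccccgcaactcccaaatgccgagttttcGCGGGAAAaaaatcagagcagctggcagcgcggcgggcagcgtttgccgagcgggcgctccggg
HELLS: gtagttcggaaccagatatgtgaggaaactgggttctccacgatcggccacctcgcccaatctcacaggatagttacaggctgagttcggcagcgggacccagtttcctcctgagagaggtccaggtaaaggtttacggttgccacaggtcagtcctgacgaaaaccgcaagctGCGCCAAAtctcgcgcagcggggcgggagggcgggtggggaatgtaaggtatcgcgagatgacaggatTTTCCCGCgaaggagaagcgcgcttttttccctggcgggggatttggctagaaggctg
TET3: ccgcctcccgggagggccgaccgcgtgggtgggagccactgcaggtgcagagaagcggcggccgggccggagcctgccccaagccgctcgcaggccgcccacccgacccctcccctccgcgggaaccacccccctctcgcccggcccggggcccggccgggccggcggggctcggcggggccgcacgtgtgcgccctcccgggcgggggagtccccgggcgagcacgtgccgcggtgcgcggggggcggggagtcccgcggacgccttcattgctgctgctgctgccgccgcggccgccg
An E2F word was present at the single start of DNMT1, 2 times at that of HELLS, and once at each of 2 of the 3 starts of UHRF1. Of all 35116 listed promoters, 3.31% hold such a word. The 15 promoters of DNMT3A, DNMT3B, TET1, TET2, TET3 and TDG hold none. The single window listed for DNMT3B, at chr20:32779602-32779901, holds 3 CpG, against a median of 14 over all promoters and 30 in that of DNMT1. It lies inside the gene model, which begins at 32762385 on the plus strand, and the sequence at that beginning was not searched. The listed windows of DNMT1, UHRF1 and HELLS also lie inside their gene models. Words for the families of the OSK factors (KLF, SOX and octamer) were searched in the same windows. The KLF word was present in the DNMT1 promoter, at position -170, and in 7.56% of all promoters. The SOX word was present at start 3 of TET1 and in 10.8% of all promoters. No listed start held the octamer, which 1.77% of all promoters hold. Words for other promoter elements were also searched and are not described here. A match is a description of the letters and not evidence of binding.

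On GRCh38 with GENCODE 29 gene models, DNMT1 lies at chr19:10133345-10231286 and UHRF1 at chr19:4903080-4962154. HELLS lies at chr10:94501434-94613905, DNMT3A at chr2:25227855-25342590 and DNMT3B at chr20:32762385-32809356. TET1 lies at chr10:68560656-68694482, TET2 at chr4:105145875-105279816, TET3 at chr2:73986404-74108176 and TDG at chr12:103965804-103988874. Counts cover whole genes, so alternative starts and isoforms are not separated. The processed pseudogenes DNMT3AP1, TET1P1 and TDGP1 and the antisense gene TET2-AS1 have lines of their own and held at most 0, 1, 4 and 9 reads in a library. HELLS shares 3763 exonic bases with the span of another gene model on the same strand that has 0 lines in the count table.

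Total counts ran from 12630675 to 17045454 a library. A floor of 3 reads, the approximate 95% upper bound for a count of 0, equalled 0.177 to 0.228 CPM (counts scaled to library size after TMM normalization). This floor covers counting error only. GFP replicate 1 stood apart, with reads on 27349 named genes, where each of the other 11 libraries had 19488 to 22073. Without it the enzymes called numbered 4 for OSK with GFP, 2 for GSTA4 with GFP, 3 for GFP with WT and 7 for OSK with GSTA4, where all libraries gave 5, 5, 4 and 6. The ORF genes followed the labels. GSTA4 had 396 to 431 CPM in its own group and at most 22.5 CPM elsewhere, and POU5F1, SOX2 and KLF4 had at least 623 CPM in OSK and at most 2.67 CPM elsewhere. Of 14 RPE markers, PMEL, TYRP1, MITF, OTX2, KRT8 and KRT18 were well expressed in every group, while RPE65, a defining enzyme of the mature tissue, had group means of 0.0229 to 0.495 CPM. Group means reached at most 0.503 CPM for CRX and 0.114 CPM for TTR. They ran from 0.692 to 5.24 CPM for RLBP1, 2.85 to 8.65 for BEST1 and 1.05 to 14.3 for LRAT. TYR had 11.9 to 66 CPM and SERPINF1 57 to 152 CPM. The 14 RPE markers summed to 2419.6 to 2657.9 CPM in WT, 2187.9 to 2520.3 in GFP, 1572.0 to 1645.2 in GSTA4 and 1387.3 to 1457.8 in OSK, sums in which KRT8 is the largest member. Gene by gene, of the 11 tested, 8 rose and 2 (KRT8 and KRT18) fell in GFP against WT, 11 fell in OSK against GFP, and 8 fell and 1 rose in GSTA4 against GFP, with median log2 changes of 0.76, -0.80 and -0.56. Of all genes tested, 11.0% rose and 11.2% fell in GFP against WT, and 22.8% fell in OSK against GFP. In GSTA4 against GFP 14.6% of all genes fell and 14.7% rose. Of 9 fibroblast-like markers 3 were tested, VIM, PDGFRB and COL1A1, which all fell in OSK against GFP, while LUM had 0 reads in all 12 libraries. Between GFP and GSTA4 COL1A1 fell from 82.6 to 4.53 CPM, PDGFRB fell from 660 to 539 CPM and VIM rose from 549 to 728 CPM. Of 7 lymphoid and myeloid markers only CSF1R was tested, which had 0.459 CPM in GSTA4 and fell there against GFP by a log2 change of -5.19 (adjusted p 6.63e-09). The part of these lists in the results on the 9 enzymes was not tested. The summed markers of pluripotent cells stayed at or below 0.19 CPM in OSK, with NANOG, DPPA4 and DNMT3L at 0 reads. In these bulk samples fewer cells of a type and less RNA per cell cannot be told apart.

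Scaled by exon length, DNMT1 was the most abundant of the 9 transcripts in each group, at 9.62 CPM per kb in GFP, followed by TDG at 5.28 and DNMT3A at 4.5. TET3 and TET2 lay at 2.72 and 2.22 CPM per kb in GFP, and UHRF1 at 1.83. HELLS, DNMT3B and TET1 were the least abundant there, at 0.656, 0.564 and 0.53 CPM per kb. Among the methyltransferases and among the TET enzymes the order in GFP was therefore DNMT1, DNMT3A, DNMT3B and TET3, TET2, TET1. In OSK TET2 exceeded TET3, at 2.41 against 1.65 CPM per kb, and UHRF1 at 2.78 came close to DNMT3A at 2.81. The length used was the union of all annotated exons, and the annotation behind the counts is not stated. For HELLS this union held 10148 bases, 3763 of them in the span of another gene model. With a shorter length HELLS would rank higher, so its place in this order is uncertain.

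**Figure D1:**
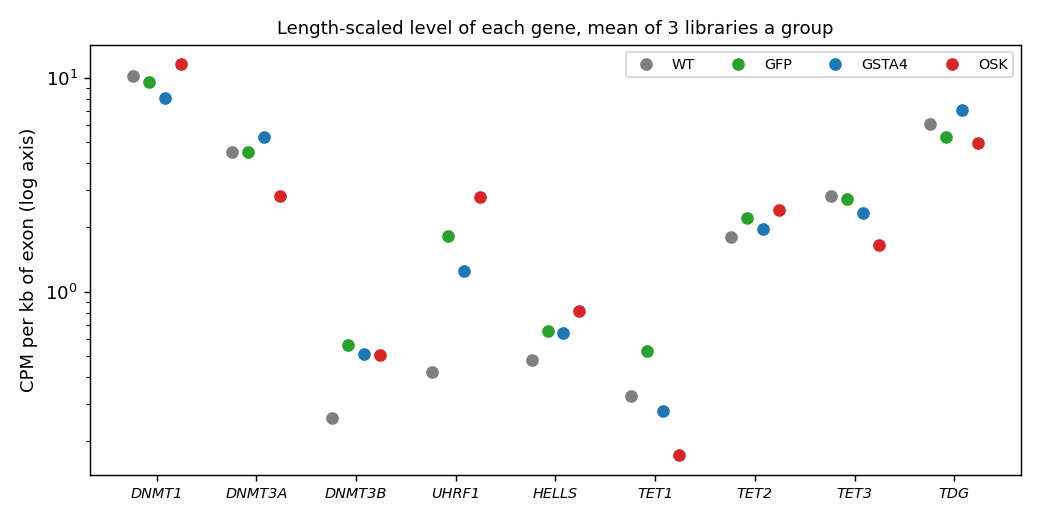
Mean level of each enzyme per kilobase of exon (GENCODE 29 exon union), on a log axis, with 1 point for each of the 4 groups (3 libraries each). DNMT1 and TDG are highest and TET1 is the lowest of the 9 in GSTA4 and OSK, at 0.277 and 0.172 CPM per kb.

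Across the 4 groups every one of the 9 genes differed by the edgeR quasi-likelihood F test, with adjusted p-values from 1.7e-08 for UHRF1 to 0.0231 for HELLS. Of all genes tested, 66.9% differed by this test. In OSK against GFP, 5 of the 9 passed the threshold (adjusted p under 0.05), where 45.9% of all genes did. Of these 2 were higher and 3 lower, where 23.1% and 22.8% of all genes were. In GSTA4 against GFP there were 5 where 29.2% of all genes passed, again 2 higher (14.7% of all genes) and 3 lower (14.6%). In GFP against WT there were 4 where 22.2% passed, all of them higher (11.0%; lower, 11.2%). In OSK against GSTA4 there were 6 where 47.8% passed, 3 higher (24.1%) and 3 lower (23.8%). In OSK against WT there were 8 where 45.4% passed, 4 higher (22.7%) and 4 lower (22.7%). In GSTA4 against WT there were 5 where 38.6% passed, 3 higher (19.7%) and the others lower. The 3 libraries of one group lay wholly above or below those of the other for 6 of the 9 in OSK against GFP (54.7% of all genes), 5 in GSTA4 against GFP (42.3%), 4 in GFP against WT (34.6%), 7 in OSK against GSTA4 (58.0%), 8 in OSK against WT (53.5%) and 4 in GSTA4 against WT (49.0%). The median change of the 9 was -0.09, -0.17 and 0.29 on the log2 scale in the first 3 comparisons, beside -0.019, 0.008 and 0.010 over all genes tested. Comparisons against GFP share the GFP libraries, and those against WT share the WT libraries. The counts depended on single libraries. In OSK against GFP 3 were left without GFP replicate 2. In GSTA4 against GFP 2 were left without GFP replicate 1, GFP replicate 3 or GSTA4 replicate 3, and 3 without GFP replicate 2, GSTA4 replicate 2 or OSK replicate 1. In GFP against WT 2 were left without GFP replicate 2, GSTA4 replicate 1 or GSTA4 replicate 2, and in GSTA4 against WT 3 without WT replicate 2 or GSTA4 replicate 3.

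**Figure D2:**
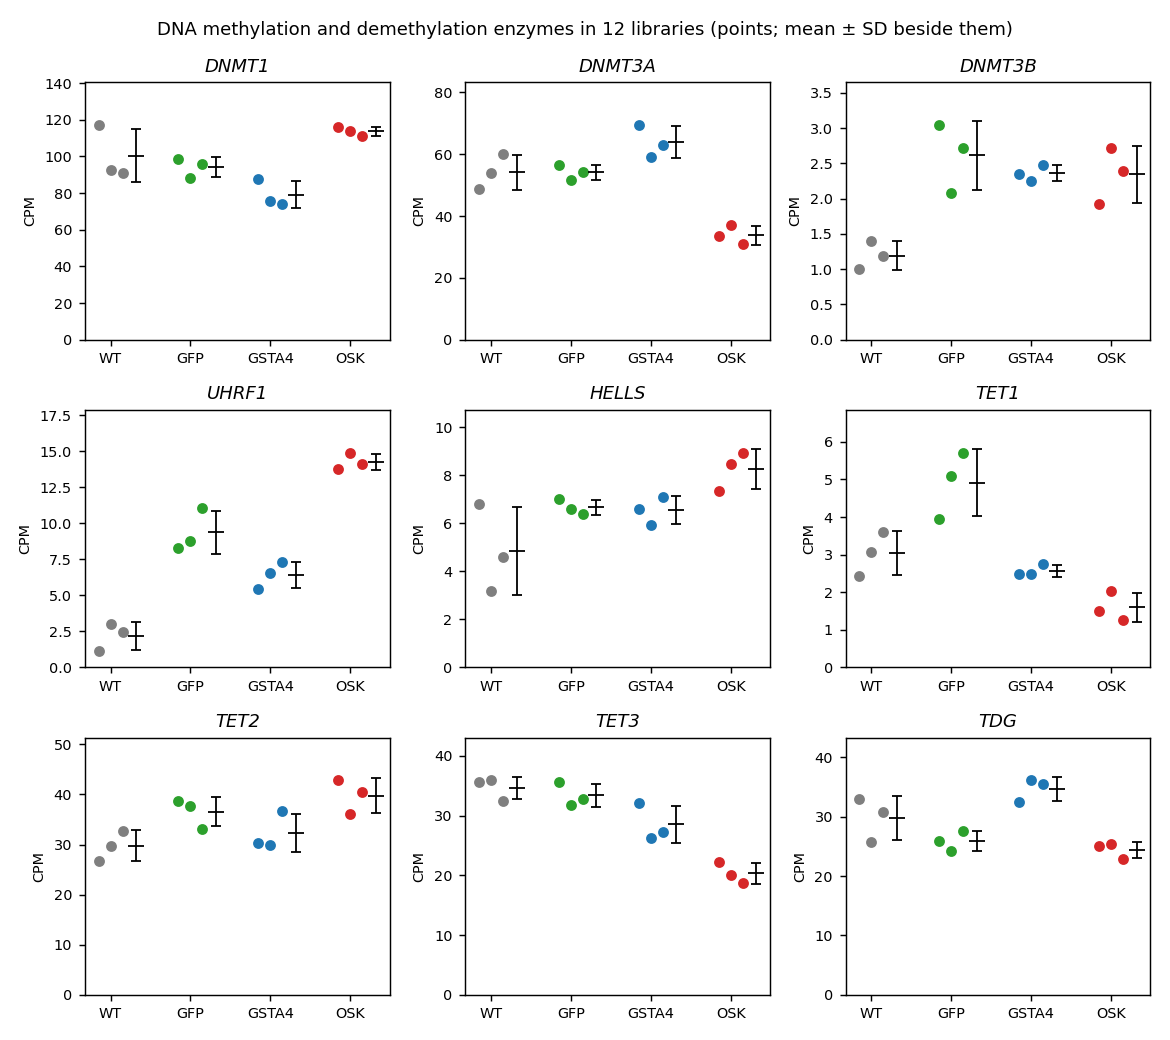
CPM of each enzyme in the 12 libraries (coloured points, 3 a group, axes from 0), with the group mean and SD in black beside them. DNMT3A and TET3 are lowest in the OSK libraries, UHRF1 is lowest in the WT libraries, and TDG is highest in the GSTA4 group by its mean of 34.7 CPM.

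**Figure D3:**
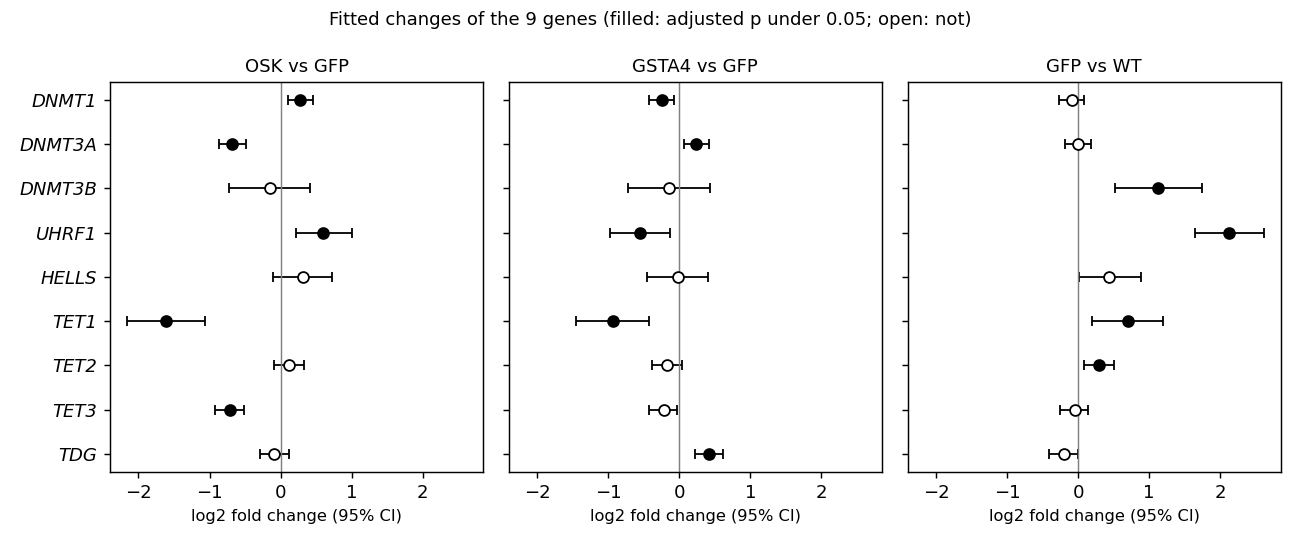
Fitted log2 fold change of each enzyme in 3 comparisons, with 95% intervals from the same fit; filled points are past the threshold and open ones are not. TET1, TET3 and DNMT3A lie to the left of 0 in OSK against GFP, and UHRF1 lies furthest to the right in GFP against WT, at 2.12.

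UHRF1, the factor that recognises hemimethylated CpG, varied most of the 9. It had 1.12, 3.01 and 2.42 CPM in WT, 8.29, 8.75 and 11.1 in GFP, 5.46, 6.53 and 7.29 in GSTA4, and 13.8, 14.9 and 14.1 in OSK. No group overlapped another, and the order OSK, GFP, GSTA4, WT held with each neighbouring pair past the threshold. GFP exceeded WT by 2.12 on the log2 scale (SE 0.233, edgeR adjusted p 2.58e-06), and this call held in all 19 alternatives tried. OSK exceeded GFP by 0.60 (SE 0.19, adjusted p 0.0134), a call lost without GFP replicate 1 (0.52, adjusted p 0.0604) or GFP replicate 2 (0.56, adjusted p 0.0509), in a range over the alternatives from 0.00105 to 0.0604. GSTA4 was lower than GFP by a log2 change of -0.55 (SE 0.203, adjusted p 0.0462). That call was lost when any 1 of the 9 GFP, GSTA4 or OSK libraries was left out, with adjusted p-values up to 0.188 without GFP replicate 3, and the difference of 1.15 between OSK and GSTA4 (SE 0.197, adjusted p 5.39e-05) held in all 19.

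DNMT1, the maintenance methyltransferase itself, moved far less. Its values were 117, 92.8 and 91.1 CPM in WT, 98.4, 88.2 and 96.1 in GFP, 87.4, 75.7 and 73.9 in GSTA4, and 116, 114 and 111 in OSK. OSK lay above GFP and GSTA4 below it without overlap, while WT replicate 1 reached the OSK level. OSK exceeded GFP by 0.27 (SE 0.0846, adjusted p 0.012), which was lost with library size alone as the scaling (0.20, adjusted p 0.082) and without GFP replicate 2 (0.23, adjusted p 0.0618), in a range over the alternatives from 0.000664 to 0.082. GSTA4 was below GFP by a log2 change of -0.25 (SE 0.0858, adjusted p 0.0309). This was lost without GFP replicate 1 (adjusted p 0.11), GFP replicate 3 (0.0731), GSTA4 replicate 2 (0.123) or GSTA4 replicate 3 (0.141), and the lowest over the alternatives was 0.00377. GSTA4 was also below WT, by a log2 change of -0.34 (SE 0.0853, adjusted p 0.00325), or -0.22 without WT replicate 1. The widest gap, 0.53 between OSK and GSTA4 (SE 0.0852, adjusted p 2.93e-05), held in all 19 alternatives. WT and GFP differed by a log2 change of -0.09 with a 95% interval from -0.27 to 0.09. OSK against WT gave 0.18 (SE 0.084, adjusted p 0.0805), and passed the threshold without WT replicate 1 (0.31, adjusted p 0.000831).

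HELLS, the remodeller, passed the threshold in 1 of the 6 pairwise comparisons. It had 6.78, 3.16 and 4.6 CPM in WT, 7, 6.59 and 6.39 in GFP, 6.61, 5.93 and 7.09 in GSTA4, and 7.33, 8.48 and 8.93 in OSK. The OSK libraries lay above all other libraries, yet OSK against GFP did not pass the threshold, with a log2 change of 0.31 (SE 0.201, adjusted p 0.219) and a 95% interval from -0.11 to 0.73. OSK exceeded WT by 0.76 (SE 0.205, adjusted p 0.00472) in all 19 alternatives. No neighbouring pair in the order OSK, GFP, GSTA4, WT passed the threshold. The spread in WT was wide, since WT replicate 1 alone reached the GFP level, and without it GFP exceeded WT by 0.76 with an adjusted p of 0.0106 and GSTA4 exceeded WT by 0.74 with 0.0057.

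Genes of the cell cycle also differed between the groups, though DNMT1 did not move with them in every comparison. The counts below are to be read beside the shares of all genes tested. These were 23.1% higher and 22.8% lower in OSK against GFP, and 11.0% and 11.2% in GFP against WT. In GSTA4 they were 14.7% and 14.6% against GFP, and against WT 19.7% were higher and 38.6% passed in either direction. Of 32 listed S phase and replication genes, 21 rose and 1 fell in OSK against GFP, with a median log2 change of 0.54. All 24 listed G2/M genes rose there, with a median of 1.15, and MKI67, the proliferation antigen, rose by 1.41 (SE 0.109, adjusted p 1.14e-09). In GFP against WT 16 S phase genes rose and 2 fell, with a median of 0.56, and all 24 G2/M genes rose, with a median of 1.94. DNMT1 changed by -0.09 there and was not called. Against WT, GSTA4 had 20 S phase genes higher (13 without GSTA4 replicate 3) and 1 lower, with a median of 0.49. All 24 G2/M genes were higher in that comparison, with a median of 1.61, while DNMT1 was lower by a log2 change of -0.34. In GSTA4 against GFP 1 S phase gene rose (MCM7, at 0.31) and 1 fell (MCM6, at -0.27), with a median of -0.10, whereas 11 G2/M genes fell and 1 rose, with a median of -0.36. Small counts here turned on single libraries. The 1 S phase gene that fell in OSK against GFP was lost without GFP replicate 2 or 3 or OSK replicate 1 or 2, and the 2 that fell in GFP against WT became 1 without GFP replicate 1 and 0 without WT replicate 1 or GFP replicate 2. In GSTA4 against GFP the S phase genes that rose became 2 without WT replicate 1 or GFP replicate 3, and those that fell became 4 without WT replicate 1, 2 without GFP replicate 1 or OSK replicate 3 and 0 without GSTA4 replicate 1. The 1 G2/M gene that rose there was lost without GFP replicate 1 or 2, GSTA4 replicate 1 or 2, or any 1 of the OSK libraries. The call of MCM6 was lost without GFP replicate 2, GFP replicate 3, GSTA4 replicate 1 or GSTA4 replicate 3, with adjusted p-values up to 0.168. The summed S phase genes had 625 to 653 CPM in WT, 730.0 to 783 in GFP, 732 to 756 in GSTA4 and 978 to 1054.4 in OSK. The summed G2/M genes had 95.9 to 118 CPM in WT, 384 to 418 in GFP, 279 to 299 in GSTA4 and 796 to 973 in OSK. Their part in the levels of UHRF1, DNMT1 and HELLS was not tested.

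DNMT3A, the main methyltransferase of somatic cells that acts without a methylated template strand, fell in OSK. Its values were 48.7, 53.8 and 60.0 CPM in WT, 56.6, 51.6 and 54.1 in GFP, 69.4, 59.1 and 63.1 in GSTA4, and 33.4, 37 and 30.9 in OSK. All OSK libraries lay below all others, while WT and GFP covered the same range. OSK was below GFP by a log2 change of -0.68 (SE 0.0907, adjusted p 3.31e-06), below WT by -0.68 (SE 0.0902, adjusted p 2.7e-06) and below GSTA4 by -0.92 (SE 0.0899, adjusted p 3.25e-08). These 3 calls held in all 19 alternatives. In GSTA4 the transcript lay above GFP by 0.24 (SE 0.0873, adjusted p 0.0432). That call was lost in 9 of the 19 alternatives, with adjusted p-values up to 0.197 without GSTA4 replicate 1. Among single libraries, GFP replicates 1, 2 and 3, GSTA4 replicate 3 and OSK replicate 1 also ended it, as did DESeq2 (0.0517), library size alone (0.059) and a filter at a mean of 1 CPM (0.0586). GSTA4 against WT gave 0.24 too (SE 0.0868, adjusted p 0.0351), although the libraries overlapped, and was lost without WT replicate 1 (0.148), WT replicate 2 (0.0821), GSTA4 replicate 1 (0.175) or GSTA4 replicate 3 (0.0715) and with only the 6 libraries compared (0.0585).

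DNMT3B, the methyltransferase best known from pluripotent and early embryonic cells, was scarce everywhere and scarcest in WT. It had 16, 19 and 20 reads in WT, 40, 29 and 40 in GFP, 37, 30 and 36 in GSTA4, and 27, 43 and 34 in OSK. The corresponding levels were 0.995 to 1.4 CPM in WT and 1.92 to 3.04 CPM across the other 9 libraries, with no overlap. GFP exceeded WT by 1.13 (SE 0.295, adjusted p 0.00917) in all 19 alternatives. OSK exceeded WT by 0.98 (SE 0.297, adjusted p 0.0099), or by 0.86 with an adjusted p of 0.0512 without OSK replicate 2, and GSTA4 exceeded WT by 0.99 (SE 0.297, adjusted p 0.0119), or by 0.88 with 0.0563 without WT replicate 1. Among the 3 ORF lines no pair passed the threshold. The 95% interval of OSK against GFP, from -0.72 to 0.42, leaves room for changes that this depth could not resolve. DNMT3L, the partner of the DNMT3 enzymes in germ cells, had 0 reads in GFP, GSTA4 and OSK.

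TET1 fell in OSK against both GFP and WT. It had 2.43, 3.08 and 3.6 CPM in WT, 3.95, 5.09 and 5.71 in GFP, 2.48, 2.48 and 2.75 in GSTA4, and 1.49, 2.03 and 1.27 in OSK, from 18 to 84 reads a library. The GFP libraries were the highest and the OSK libraries the lowest, without overlap between GFP and any other group. OSK was below GFP by a log2 change of -1.61 (SE 0.263, adjusted p 3.8e-05) and GSTA4 below GFP by -0.94 (SE 0.248, adjusted p 0.00705), both in all 19 alternatives. OSK was below WT by -0.92 (SE 0.271, adjusted p 0.00868), again in all 19. GFP exceeded WT by 0.70 (SE 0.242, adjusted p 0.0443), a call lost in 10 alternatives, DESeq2 (0.0502), no filter (0.0704) and only the 6 libraries (0.0698) among them. The single libraries that ended it were WT replicates 1 and 2, GFP replicates 2 and 3 and each of the 3 GSTA4 libraries, with adjusted p-values up to 0.171 without WT replicate 1. GSTA4 did not differ from WT past the threshold (-0.24, 95% interval -0.78 to 0.29). The direct comparison of OSK with GSTA4 lay at the threshold, with -0.68 (SE 0.278, adjusted p 0.0509) and a range from 0.0288 to 0.177 over the alternatives. It passed without WT replicate 1 (0.0451), GFP replicate 1 (0.0446) or OSK replicate 2 (0.0288), with library size alone (0.0299) and with a filter at a mean of 1 CPM (0.0466).

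TET3 fell in OSK as well. It had 35.6, 35.9 and 32.5 CPM in WT, 35.6, 31.8 and 32.8 in GFP, 32.1, 26.3 and 27.2 in GSTA4, and 22.2, 20.1 and 18.7 in OSK, and the OSK libraries lay below all others. OSK differed from GFP by -0.71 (SE 0.0972, adjusted p 4.18e-06), from WT by -0.77 (SE 0.0964, adjusted p 1.33e-06) and from GSTA4 by -0.49 (SE 0.0978, adjusted p 0.00029), each in all 19 alternatives. GSTA4 against GFP missed the threshold at -0.22 (SE 0.0945, adjusted p 0.0844), and passed it without GSTA4 replicate 1 (0.0287). GSTA4 was below WT by -0.28 (SE 0.0937, adjusted p 0.0246), a call lost without WT replicate 1 (0.0584), WT replicate 2 (0.0772), GSTA4 replicate 2 (0.118) or GSTA4 replicate 3 (0.0966).

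TET2 did not share the fall of its relatives. It had 26.7, 29.8 and 32.8 CPM in WT, 38.6, 37.7 and 33.2 in GFP, 30.3, 29.9 and 36.7 in GSTA4, and 42.8, 36 and 40.5 in OSK. Neighbouring groups in the order OSK, GFP, GSTA4, WT overlapped, and no neighbouring pair passed the threshold. OSK against GFP gave 0.12 with a 95% interval from -0.09 to 0.33, an interval that excludes a fall of the size seen for TET1 and TET3. OSK exceeded WT by 0.41 (SE 0.101, adjusted p 0.00205) in all 19 alternatives. OSK exceeded GSTA4 by 0.30 (SE 0.101, adjusted p 0.0197), which was lost with library size alone (0.0679) and without GSTA4 replicate 1 (0.0856), GSTA4 replicate 2 (0.0923) or OSK replicate 1 (0.0757). GFP exceeded WT by 0.29 (SE 0.102, adjusted p 0.0449), which was lost in 9 alternatives. These were no filter (0.053), only the 6 libraries (0.0594) and the omission of WT replicate 1 (0.175) or 2, GFP replicate 1 or 2, GSTA4 replicate 1 or 2, or OSK replicate 3.

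TDG, the glycosylase that cuts out the most oxidised forms of methylated cytosine, rose in GSTA4 against GFP. It had 33, 25.7 and 30.7 CPM in WT, 25.9, 24.3 and 27.6 in GFP, 32.4, 36.1 and 35.5 in GSTA4, and 25, 25.4 and 22.8 in OSK. The GSTA4 libraries lay above those of GFP and OSK, while the WT libraries overlapped those of GFP and of GSTA4 and lay above those of OSK. GSTA4 exceeded GFP by 0.42 (SE 0.0968, adjusted p 0.00253) and OSK was below GSTA4 by -0.51 (SE 0.0969, adjusted p 0.000195), both in all 19 alternatives. OSK and GFP differed by -0.09 (95% interval -0.29 to 0.12). OSK was below WT by -0.29 (SE 0.0973, adjusted p 0.0184), a call lost without WT replicate 1 (0.102), WT replicate 3 (0.059) or OSK replicate 3 (0.0899). GSTA4 and GFP lay on either side of WT, and neither passed the threshold against it, with adjusted p-values of 0.0824 and 0.142; the former passed without WT replicate 1 (0.0273) and the latter without WT replicate 2 (0.0364).

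Other genes of the methylation pathway were taken from lists written from general knowledge. Their counts are to be read beside the share of all tested genes past the threshold. This share was 45.9% for OSK with GFP, 29.2% when GSTA4 was set beside GFP, and 22.2% between GFP and WT. Whether any list departed from these shares was not tested. Among 12 tested partners of the methyltransferases, 1 rose and 3 fell in OSK against GFP, with a median change of -0.03, and with library size alone as the scaling 6 fell. PCNA, the replication clamp that tethers DNMT1, rose from 70.6 to 102 CPM (0.54, SE 0.0631, adjusted p 5.86e-07), while ZBTB24, a zinc finger gene of the same immunodeficiency syndrome as DNMT3B and HELLS, fell from 18.4 to 9.62 CPM (-0.93, SE 0.12, adjusted p 2.02e-06). In GSTA4 against GFP 2 rose and 1 fell, among them EHMT2, a histone H3 lysine methyltransferase, at 0.40 (SE 0.0718, adjusted p 0.000215). Without WT replicate 1 there were 4 that rose, and the 1 that fell, the chromatin ATPase MORC2 at -0.27, lost its call without GFP replicate 3 or GSTA4 replicate 1. In GFP against WT CDCA7, the partner that recruits HELLS, rose from 0.895 to 3.82 CPM (2.11, SE 0.414, adjusted p 0.0011). UHRF2, the paralog of UHRF1, had 62.9 to 67.6 CPM in all 4 groups and was past the threshold in none of these 3 comparisons (adjusted p 0.455, 0.662 and 0.763).

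All 8 readers of methylated DNA were tested. In OSK against GFP 2 readers rose, MBD2 by 0.37 (SE 0.0833, adjusted p 0.000968) and ZBTB38 by 0.72 (adjusted p 0.00135, named because it completes the count). In GFP against WT 3 readers fell and 0 rose by edgeR, and likewise 0 rose at an unadjusted p under 0.05 or by DESeq2. MBD3 fell by a log2 change of -0.57 (SE 0.119, adjusted p 0.00184) and ZBTB38 by -0.77 (SE 0.166, adjusted p 0.00246). The WT libraries of ZBTB38 were uneven, at 408 ± 177 CPM (SD, n = 3), and without WT replicate 1 its change was -0.36.

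Among 13 tested genes of the base excision steps, 2 rose and 5 fell in OSK against GFP, with a median of -0.11, and 5 rose and 2 fell in GSTA4 against GFP, with a median of 0.05. The count of 5 fell to 2 without GFP replicate 1 or GFP replicate 2 and to 3 when GSTA4 replicate 1, 2 or 3 was left out, while the 2 that rose in OSK became 1 without GFP replicate 2, GFP replicate 3, OSK replicate 1 or OSK replicate 3 and with library size alone. GADD45B, a stress gene linked to active demethylation, fell against GFP in OSK (-1.13, SE 0.0703, adjusted p 4.12e-11) and in GSTA4 (-1.06, SE 0.0701, adjusted p 2.79e-10). GFP lay below WT by -0.95 (SE 0.0668, adjusted p 1.01e-08). Its group means descended from 255 CPM (WT) through 132 (GFP) to 63.3 (GSTA4) and 60.1 (OSK). GADD45A, its relative, rose in GSTA4 by 0.85 (SE 0.108, adjusted p 4e-06) to 251 CPM. PARP1, which senses strand breaks, rose against GFP by 0.50 in OSK (SE 0.0691, adjusted p 5.38e-06) and by 0.52 in GSTA4 (adjusted p 6.72e-06).

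Of 14 tested TET partners and enzymes of their cofactor, 6 rose and 2 fell in OSK against GFP, with a median of 0.20. TET enzymes use 2-oxoglutarate, which isocitrate dehydrogenases make and OGDH consumes. IDH1 rose from 59.4 to 118 CPM (1.00, SE 0.0789, adjusted p 1.85e-09) and OGDH from 178 to 364 CPM (1.03, SE 0.0876, adjusted p 5.08e-09) in OSK. The count of 2 that fell was 1 without OSK replicate 3. In GSTA4 against GFP 6 rose and 4 fell. OGT, the glycosyltransferase that binds TET proteins, rose by 0.51 (SE 0.0694, adjusted p 1.14e-05), and CXXC5 changed by -0.40 (SE 0.0628, adjusted p 6.09e-05). In the methyl donor cycle 3 of 16 rose and 2 fell in OSK, and 3 rose and 1 fell in GSTA4, both against GFP. With library size alone 1 rose in OSK. AHCY, which clears the inhibitor that methyltransferases leave behind, changed by -0.30 (SE 0.0726, adjusted p 0.00212) in OSK and by 0.34 (SE 0.0719, adjusted p 0.00104) in GSTA4. The 2 that fell in OSK became 1 without GFP replicate 1, GFP replicate 3, OSK replicate 2 or OSK replicate 3, and the 1 that fell in GSTA4 became 2 without GFP replicate 1.

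**Figure D4:**
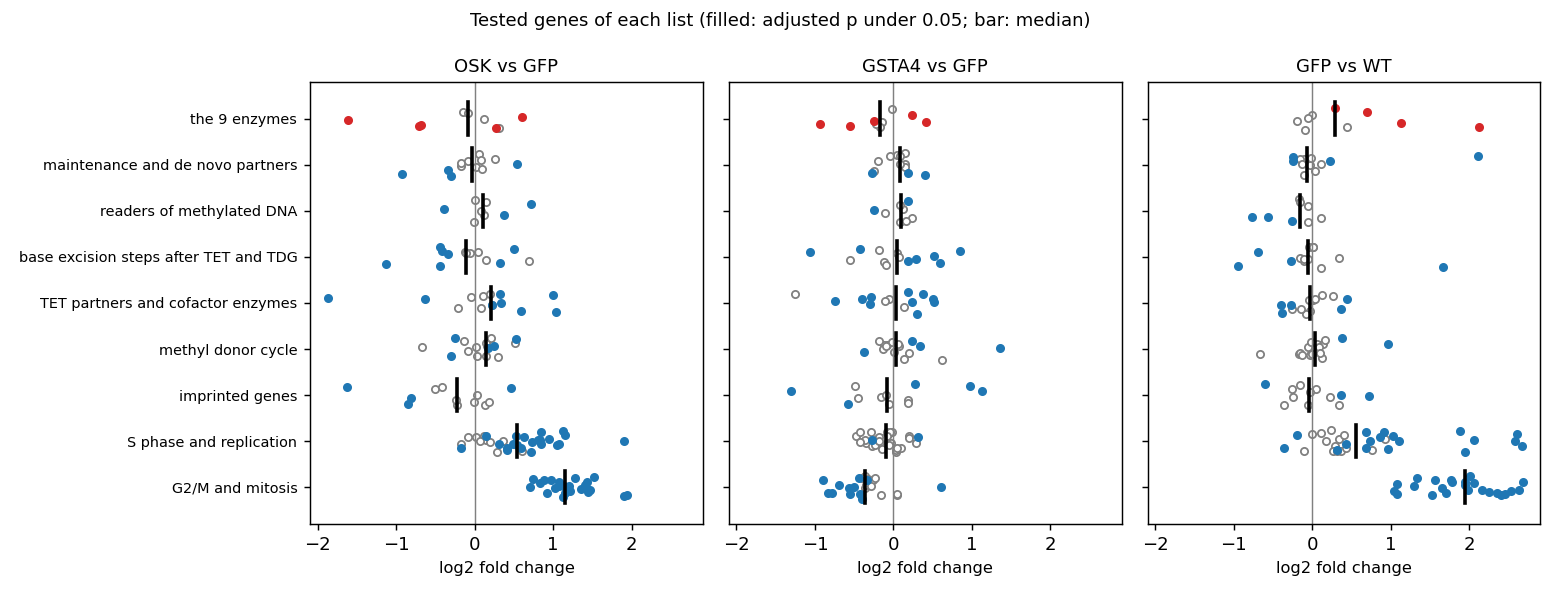
Log2 fold change of every tested gene of each list in 3 comparisons (points, filled where past the threshold; vertical spread within a row is random), with the median of the list as a bar. The S phase and G2/M lists lie to the right of 0 in OSK against GFP, with medians of 0.54 and 1.15, and the other lists have medians between -0.23 and 0.20 there.

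Genes known to be kept silent or marked by DNA methylation were listed as well. Of 23 germline genes that promoter methylation silences in somatic cells, 3 had enough reads to be tested, SYCP3, TDRD6 and STK31. In each of the comparisons OSK with GFP, GSTA4 with GFP and GFP with WT, 0 of the 3 passed by edgeR, and 0 also at an unadjusted p under 0.05 or by DESeq2. Without WT replicate 1, 1 rose in GFP against WT. In the remaining comparisons TDRD6, a germ granule gene, was higher in OSK than in GSTA4 by 1.26 (SE 0.472, adjusted p 0.0325) and lower in GSTA4 than in WT by a log2 change of -1.54 (SE 0.463, adjusted p 0.0122), from 3 to 31 reads a library. The first call was lost without GSTA4 replicate 2 or 3 or OSK replicate 1 or 2, and the second without GSTA4 replicate 2. The group means of STK31 lay between 0.559 and 0.791 CPM, from 2 to 20 reads a library. MAGEA1, MAGEB2, GAGE2A and SSX2 had 0 reads in all 12 libraries. Of 12 tested imprinted genes, 1 rose and 3 fell in OSK against GFP, and without GFP replicate 3 or OSK replicate 3 there were 2 that rose. KCNQ1OT1, an imprinted antisense RNA, was highest in GFP, at 33.8 CPM, with means of 20.6 (WT), 13.6 (GSTA4) and 10.9 CPM (OSK), and changed against GFP by -1.62 (SE 0.154, adjusted p 2.67e-08) in OSK and by -1.31 (SE 0.15, adjusted p 1.09e-06) in GSTA4. NDN rose in GSTA4 against GFP by 1.13 (SE 0.157, adjusted p 1.25e-05), and GNAS rose against GFP by 0.46 in OSK (SE 0.0603, adjusted p 2.89e-06) and by 0.28 in GSTA4 (adjusted p 0.00132). KCNQ1OT1 lies antisense to another gene, and since the counting strand is not stated, reads of both cannot be told apart.

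Likeness to each enzyme was measured as Pearson's r of log2 CPM over the 12 libraries against 13687 genes with a mean of at least 1 CPM. Since the 4 groups differ in level, the values describe group patterns and carry no test. The nearest genes to UHRF1 were PLCE1 (r = 0.986), KIF11 (0.98), a mitotic kinesin, and PIMREG (0.979). KIF11 had 4.07, 16, 12.8 and 30.3 CPM in WT, GFP, GSTA4 and OSK. The nearest to DNMT3A was MXRA5 (0.978), to TET3 ITSN1 (0.983), to TET1 RBM7 (0.969) and to DNMT1 FAM3C (0.955). For HELLS, TDG, DNMT3B and TET2 the highest values were 0.96, 0.933, 0.925 and 0.912.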

How the data were processed

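Gene counts of 12 poly(A) RNA libraries were deposited by the authors as raw counts, with 60605 lines. STAR 2.7.1a and featureCounts 1.6.2 and the builds GRCh38 (hg38) and GRCm38 (mm10) are named per the submitters' processing notes, with no role or order. The annotation release and the counting strand are not given in the sources used here, so reads of antisense neighbours cannot be told apart. The 20014 lines without a gene name, 0.485% to 0.822% of a library, were left out. Counts were scaled by TMM and tested with edgeR 4.0.16 (limma 3.58.1, R 4.3.3) by the quasi-likelihood F test over all 12 libraries, after filterByExpr, two-sided, with Benjamini-Hochberg adjustment over 15179 genes and a threshold of 0.05. Standard errors were derived from the fold change and F, and 95% intervals from the same fit. Tests were checked on simulated data. Alternatives were library size alone, RLE scaling, no filter, a filter at a mean of 1 CPM, the tool DESeq2 1.42.0, a replicate block, only the libraries compared, and each library left out. From each gene list and each of the comparisons OSK against GFP, GSTA4 against GFP and GFP against WT, the rule named up to 2 called genes of lowest adjusted p whose mean reached 1 CPM. A gene that meets the rule is not reported here. Genes named outside it (UHRF2, DNMT3L, ZBTB38 in OSK, germline genes) were chosen after their values were seen. For likeness the 3 genes of highest r were taken. The members and lists were chosen with earlier results of these data known. Gene models are from GENCODE 29, promoters from RefSeq.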

Additional observations from a re-analysis of the deposited data

How the results depend on the processing

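Over 54 combinations of an enzyme and a comparison, 1026 alternative values were computed; 949 kept their direction and their side of the threshold, 63 fell short of it, 14 newly passed it, and 0 of these reversed a called direction. With no filter, and with only the 6 libraries compared, the enzymes called in GFP against WT numbered 2 in place of 4, with fewer libraries or more genes entering the fit. Leaving out 1 library at a time gave 3 to 5 calls in OSK against GFP, 2 to 5 in GSTA4 against GFP, 2 to 4 in GFP against WT, 5 to 7 in OSK against GSTA4, 7 to 8 in OSK against WT, 3 to 5 in GSTA4 against WT and 8 to 9 for any difference. Setting each gene against the median S phase gene of its library takes 1 shift per comparison from every gene, so that a called rise smaller than the shift turns sign by construction, whatever the gene. This was so for 9 changes: DNMT1 to -0.35 in OSK against GFP and -0.12 in OSK against GSTA4, UHRF1 to -0.01 in OSK against GFP, DNMT3A to -0.16 in GSTA4 against WT, DNMT3B to -0.09 and HELLS to -0.22 in OSK against WT, and TET2 to -0.13 in GFP against WT, -0.35 in OSK against GSTA4 and -0.63 in OSK against WT. The shift was 0.62 for OSK with GFP, 0.65 for OSK with GSTA4, 1.05 for OSK with WT, 0.40 for GSTA4 with WT and 0.43 for GFP with WT. With library size alone, 39.8% of all genes called in OSK against GFP were higher, against 50.4% with TMM. Deviations from the group means were correlated between libraries of different groups. Same-numbered libraries had r from -0.02 to 0.13 over 18 pairs (median 0.02), and differently numbered ones from -0.09 to 0.06 over 36 pairs (median -0.01). The highest values joined WT replicate 1 with replicate 1 of GFP (0.13), GSTA4 (0.10) and OSK (0.09). A replicate block gave 5, 6, 4, 7, 9, 5 and 9 calls in the order of comparisons above; those that newly passed with it were TET3 in GSTA4 against GFP (-0.23, adjusted p 0.0481), TET1 in OSK against GSTA4 (-0.68, 0.0476) and DNMT1 in OSK against WT (0.19, 0.0202), and it ended 0 calls. Depth limits DNMT3B and TET1 most, with 16 to 43 and 18 to 84 reads a library.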
